A study of Mus musculus with 2 samples.

Results

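The elastic fibre genes are 10 genes that encode elastin and the microfibril and fibulin proteins that organise it: *Eln*, *Fbn1*, *Fbn2*, *Mfap2*, *Mfap4*, *Mfap5*, *Fbln1*, *Fbln2*, *Fbln5* and *Efemp1*. They were chosen by symbol, and all 10 were among the 33696 genes counted in both libraries. The cells came from hindlimb digits 2 and 4 of neonate ICR mice, a wild-type outbred stock. All digits were amputated through the middle phalanx (P2) at PN3, a level that does not regenerate, and a bead was implanted at PN7, with FGF8 at 500 ng/µl in one group and 0.1% BSA in the other. At PN8, 24 h after the bead, the tissue distal to the P2 stump was dissected without its epithelium and dissociated with Liberase, and the cells of 20 digits from 5 mice, male and female together, were pooled into 1 library per treatment. Not every FGF8 digit goes on to regenerate, so the FGF8 pool may have held both outcomes.

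An elastic fibre has a core of elastin laid down on a scaffold of microfibrils. Tropoelastin, the product of *Eln*, is secreted by fibroblasts and smooth muscle cells, gathered on fibrillin microfibrils with the help of fibulins, and crosslinked by lysyl oxidases. *Fbn1* and *Fbn2* encode the fibrillins, of which fibrillin-2 is known mainly from developing tissue, and *Mfap2* and *Mfap5* encode the microfibril-associated glycoproteins bound to them. *Mfap4* and *Fbln5* encode proteins that bind tropoelastin and promote its assembly, and *Fbln1*, *Fbln2* and *Efemp1* encode other fibulins of the matrix. In skin and tendon these fibres give recoil, and microfibrils also hold latent TGF-beta and BMPs in store.

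The BSA library held 67739460 unique molecular identifiers (UMIs, each 1 captured transcript) in 3703 barcodes, and the FGF8 library held 124889213 in 7249. After filters on detected genes and mitochondrial share, 3252 BSA and 6715 FGF8 cells remained, with medians of 15377 and 12251 UMIs per cell. Of the cells whose sex could be called from X- and Y-linked transcripts, 79.3% were female in the BSA library and 24.6% in the FGF8 library, so treatment, sex, pool of animals and library cannot be told apart from the pooled values. The libraries shared 6 barcodes, 0.162% of those of the BSA library. With 1 library per treatment there was no replicate and no test. Levels are UMIs summed over a cell type per 1000000 UMIs (CPM), differences are log2 ratios of FGF8 over BSA CPM, and the 95% intervals, exact for Poisson or binomial counts, cover counting error only. Because the assay counts transcript ends, levels were compared between cells and libraries for 1 gene at a time.

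Most of the elastic fibre transcripts came from fibroblast-like cells, 1701 in the BSA library and 3314 in the FGF8 library, a cluster found without using any of the 10 genes as clustering features and in which all 9 listed fibroblast markers were detected. *Mfap5* and *Mfap4* still headed the genes that set this cluster apart from the other cells. In it, *Eln*, *Mfap2*, *Mfap4* and *Fbln5* were between 1.58-fold and 2.05-fold lower in the FGF8 library. Both fibrillin genes, *Mfap5* and the other fibulin genes differed by less than 1.5-fold.

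Among these cells *Eln* was counted at 2039 CPM with BSA beads and 1073 CPM with FGF8 beads. The log2 ratio was -0.93 (95% interval -0.94 to -0.91), or 1.90-fold lower with FGF8. *Mfap4* was at 1677 CPM (BSA) and 820 CPM (FGF8), a log2 ratio of -1.03 (-1.05 to -1.02). *Mfap2* was at 902 CPM in BSA and 478 CPM in FGF8, a log2 ratio of -0.92 (-0.94 to -0.89). These 3 genes, which encode the elastic core, a tropoelastin-binding protein and a microfibril glycoprotein, differed by similar amounts. *Fbln5* was at 355 CPM in BSA and 225 CPM in FGF8, a log2 ratio of -0.66 (-0.69 to -0.63). The 2 libraries' intervals did not overlap for any of the 4 genes. At these counts the intervals were narrow, and those of the *Fbn1*, *Fbn2* and *Mfap5* ratios also lay below 0. The share of all genes without overlap was not computed.

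The fibrillins, which form the scaffold, differed much less. *Fbn1* was at 785 CPM in BSA and 674 CPM in FGF8, a log2 ratio of -0.22 (-0.24 to -0.20). *Fbn2* was at 453 CPM in BSA and 360 CPM in FGF8, a log2 ratio of -0.33 (-0.36 to -0.30). *Mfap5*, at 757 CPM in BSA and 596 CPM in FGF8, had a ratio of -0.35 (-0.37 to -0.32), smaller than that of *Mfap2*, which encodes the other glycoprotein of its family. *Fbln2* had the same level in both libraries, at 325 CPM in BSA and 324 CPM in FGF8, with an interval of the log2 ratio from -0.03 to 0.03. *Fbln1* was at 118 and 102 CPM (-0.20, interval -0.26 to -0.15), and *Efemp1* was at 26.8 and 23.4 CPM (-0.20, interval -0.31 to -0.08).

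All 10 genes had a log2 ratio below 0, though that of *Fbln2* was 0 within its interval. Among the 20049 genes that reached 10 UMIs in these cells, both libraries together, 56.0% had a ratio below 0. *Eln*, *Mfap2*, *Mfap4* and *Fbln5*, 4 of the 10, were at least 1.5-fold lower with FGF8, as were 15.7% of all genes, and *Mfap4* alone was at least 2-fold lower, as were 5.08% of all genes. No elastic fibre gene was at least 1.5-fold higher, against 13.3% of all genes, or at least 2-fold higher, against 6.50%. With a stricter cell filter, with each cell counted equally or after thinning to 2000 or 5000 UMIs, 2 of the 10 were at least 1.5-fold lower, and the share of all genes was not computed under these settings. The median log2 ratio was -0.34 for the 10 genes and -0.07 for all genes.

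**Figure D1:**
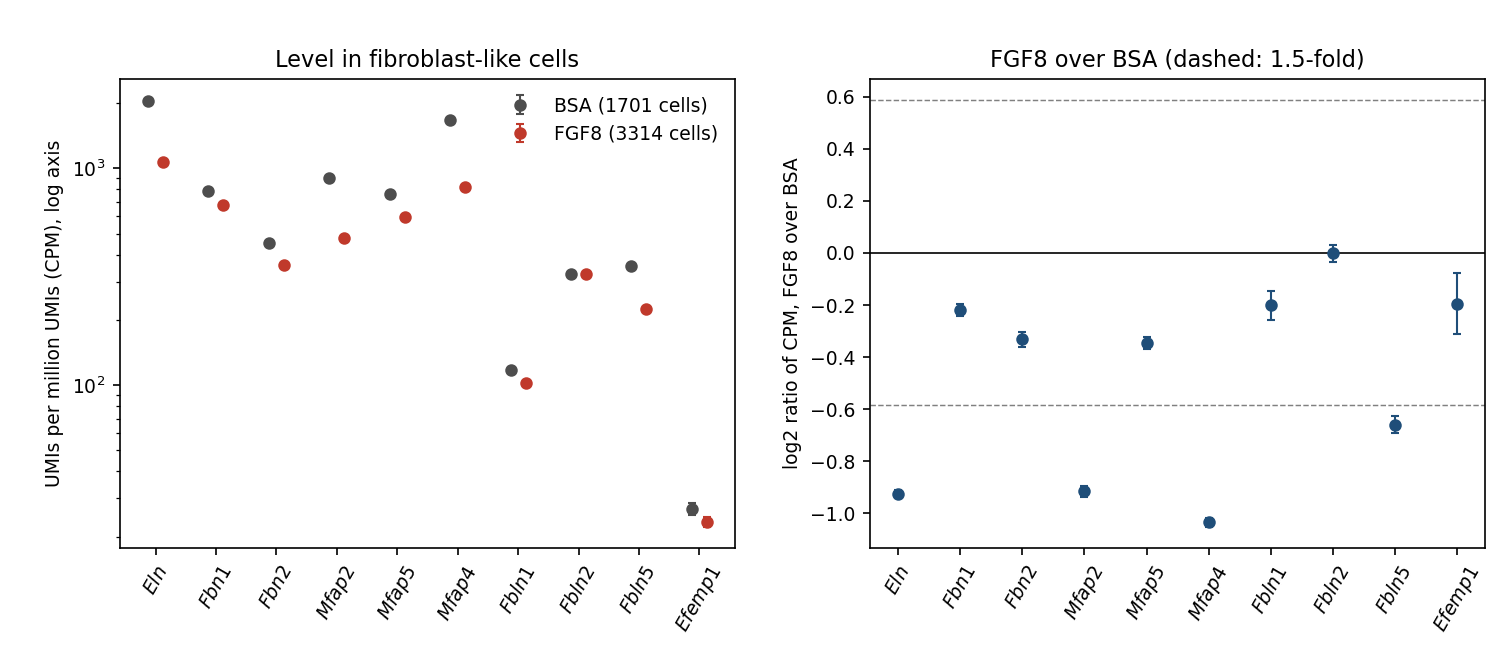
Levels of the 10 elastic fibre genes in fibroblast-like cells, as CPM on a log axis for the BSA (grey) and FGF8 (red) library, and the log2 ratio of FGF8 over BSA; bars are 95% counting intervals and dashed lines mark 1.5-fold. *Eln*, *Mfap2*, *Mfap4* and *Fbln5* lie below the lower dashed line, between -0.66 and -1.03, and *Fbln2* lies at 0.

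The 4 genes that were 1.5-fold lower were also lower within each sex, which the pools held in unequal shares. Between female-called cells, 1187 in BSA and 682 in FGF8, the log2 ratio was -0.89 for *Eln*, -0.99 for *Mfap2*, -1.04 for *Mfap4* and -0.69 for *Fbln5*. Between male-called cells, 294 in BSA and 2127 in FGF8, the corresponding ratios were -1.02 for *Eln*, -0.96 for *Mfap2*, -1.18 for *Mfap4* and -0.65 for *Fbln5*. *Mfap5* differed more between the sexes, with a ratio of -0.42 for female-called cells and -0.11 for male-called ones. So did *Efemp1*, at low counts, with 0.13 (-0.06 to 0.32) for female-called cells and -0.33 (-0.56 to -0.10) for male-called ones. Within the BSA library *Mfap5* was higher in female-called than in male-called fibroblast-like cells, with a log2 ratio of 0.21 (0.16 to 0.26), and within the FGF8 library lower (-0.10, interval -0.13 to -0.06).

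For *Mfap2*, *Mfap4* and *Eln* the share of cells with a UMI was also lower with FGF8. To compare cells of unequal depth, each was thinned to 2000 UMIs, which kept 1621 BSA and 3168 FGF8 fibroblast-like cells. *Mfap2* was then found in 72.8% of BSA cells (70.6 to 74.9) and 53.8% of FGF8 cells (52.0 to 55.5), and *Mfap4* in 71.1% (68.9 to 73.3) and 54.7% (53.0 to 56.4). *Eln* was found in 61.0% of BSA cells (58.5 to 63.3) and 50.8% of FGF8 cells (49.0 to 52.5). *Fbn1* was found in 67.2% and 66.8% and *Mfap5* in 46.1% and 46.6% of BSA and FGF8 cells, with overlapping intervals. Without thinning, *Eln* was found in 88.1% of BSA and 85.0% of FGF8 cells. As a background from free RNA in the droplets, macrophage-like cells, not known as a source of elastin, had an *Eln* UMI in 11.8% of BSA and 11.6% of FGF8 cells at 2000 UMIs, and neutrophil-like cells in 15.9% and 27.3%. Median depths before thinning were 20185 and 18633.5 UMIs in fibroblast-like cells, 10883 and 9706 in macrophage-like cells and 3205.5 and 2383 in neutrophil-like cells. The shares in fibroblast-like cells were above all of these.

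*Eln* was spread very unevenly over the fibroblast-like cells. In the BSA library 96 of 1701 cells, 5.64%, held 50% of its UMIs, and in the FGF8 library 179 of 3314 cells did so. The median cell had 618 CPM of *Eln* in BSA and 300.4 in FGF8, and the 90th percentile was 5924 in BSA and 3974 in FGF8. *Mfap2* was more even, with 50% of its UMIs in 374 BSA and 592 FGF8 cells, and *Fbn1* needed 293 BSA and 661 FGF8 cells. *Efemp1* was the most concentrated of the 10 in both libraries, with 50% of its UMIs in 2.82% of BSA and 2.72% of FGF8 cells.

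The fibroblast-like cells were re-clustered without the elastic fibre genes, their pathway genes or sex-linked genes, which gave 6 subclusters, called here by their leading genes. F0 was led by *Prg4*, the lubricin gene of joint surfaces, and by mitotic genes such as *Ube2c* and *Plk1*. F1 was led by *Chodl* and *Sema3a*, F2 by the tendon and cartilage matrix genes *Fmod* and *Comp*, F4 by *Lpl*, *Dlk1* and *Pi16*, and F5 by *Coch* and *Nrg1*. F3 had few UMIs per cell, with medians of 2825 in BSA and 2655 in FGF8, and was led by *Lars2* and *Camk1d*. F0 made up 16.3% of the BSA fibroblast-like cells (14.6 to 18.2) and 32.7% of the FGF8 ones (31.1 to 34.3). Its cells were also the deepest, with medians of 31362.5 UMIs in BSA and 34107.5 in FGF8, so that F0 supplied 25.2% of the fibroblast UMIs of the BSA library and 53.2% of those of the FGF8 library.

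The genes differed in which subcluster held their highest level. *Eln* was highest in F3, at 3752 CPM in BSA and 2511 CPM in FGF8, although 7 of the 211 BSA F3 cells held 50% of its 3342 UMIs there. It was next highest in F2 in the BSA library, at 3548 CPM, and in F1 in the FGF8 library, at 2368 CPM, with 2193 CPM in F2. It was lowest in F0, at 621 CPM in BSA and 359 CPM in FGF8. F2, which held 18.4% of the BSA fibroblast-like cells, contained 47 of the 96 BSA cells with 50% of the *Eln* UMIs, and in the FGF8 library 60 of the 179 such cells were in F1 and 56 in F2. *Mfap2*, *Mfap4* and *Fbln5* peaked instead in F1. There *Mfap4* was at 2797 CPM in BSA and 2441 CPM in FGF8, *Mfap2* at 1493 and 1329 CPM, and *Fbln5* at 566 and 603 CPM. In F0 the same genes had their lowest levels in both libraries, with *Mfap4* at 571 and 265 CPM, *Mfap2* at 347 and 149 CPM and *Fbln5* at 159 and 102 CPM.

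*Mfap5* and *Efemp1* were highest in F4. *Mfap5* was at 1403 CPM in BSA and 1182 CPM in FGF8 F4 cells and at 222 and 247 CPM in F5, its lowest subcluster. *Efemp1* was at 92.8 and 96.1 CPM in F4 and between 2.45 and 33.7 CPM in the other subclusters. *Fbln1* had 2 high subclusters, F4 with 212 and 192 CPM and F1 with 172 and 216 CPM, and their order differed between the libraries. *Fbn1* was highest in F3 in BSA and in F4 in FGF8, with 1397 and 1340 CPM in F3 and F4 of BSA and 1156 and 1174 CPM in F3 and F4 of FGF8, neighbours whose counting intervals overlapped. *Fbn2* was highest in F3, at 904 and 778 CPM, followed by F5, at 765 and 692 CPM, and *Fbln2* was highest in F5, at 548 and 515 CPM.

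**Figure D2:**
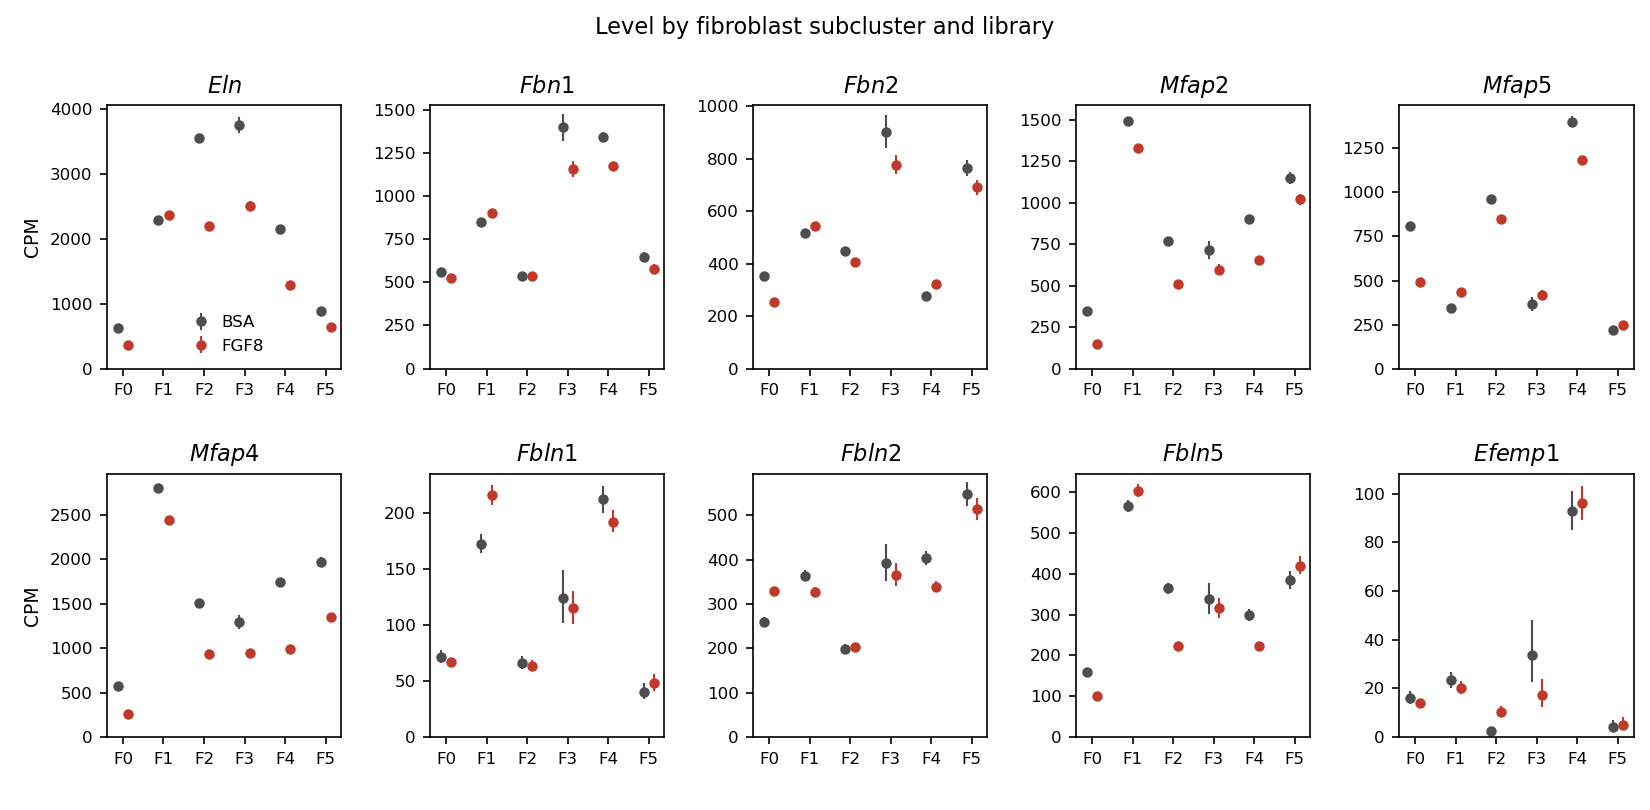
CPM of each elastic fibre gene in the 6 fibroblast subclusters for the BSA (grey) and FGF8 (red) library, with 95% counting intervals; each panel has its own axis from 0. In F1 *Eln* was at 2289 and 2368 CPM in the 2 libraries, in F2 at 3548 and 2193 CPM, and F0 had the lowest *Eln*, *Mfap2*, *Mfap4* and *Fbln5* in both.

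The difference between the libraries was not the same in every subcluster. In F0 the log2 ratio was -1.22 (-1.29 to -1.16) for *Mfap2*, -1.11 (-1.16 to -1.06) for *Mfap4*, -0.79 (-0.84 to -0.75) for *Eln*, -0.72 (-0.76 to -0.68) for *Mfap5* and -0.65 (-0.74 to -0.56) for *Fbln5*. These 5 of the 10 genes were at least 1.5-fold lower there, against 19.2% of the 17274 genes with at least 10 UMIs in F0. In all, 9 of the 10 were below 0, against 55.9% of those genes. *Fbln2* was the exception, at 260 CPM in BSA and 330 CPM in FGF8 F0 cells, with a log2 ratio of 0.35 (0.28 to 0.41). The F0 ratio of *Eln* depended on how the fibroblast-like cells were divided, and ran from -1.49 to -0.85 under 3 other clusterings. The value of -1.49 came from a resolution of 0.1, at which F0 held 599 BSA and 1554 FGF8 cells instead of 278 and 1084, and there *Efemp1* was at 0.45 instead of -0.20 and *Fbln5* at -1.04.

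In F1 the log2 ratios of the 10 genes ran from -0.20 to 0.36. *Eln* was at 2289 CPM in BSA and 2368 CPM in FGF8, a log2 ratio of 0.05 (0.02 to 0.08), and *Mfap4* differed by -0.20 (-0.22 to -0.17). *Mfap5* and *Fbln1* were higher with FGF8 in F1, with log2 ratios of 0.36 (0.29 to 0.42) and 0.33 (0.23 to 0.42). The intervals of the *Eln*, *Mfap2*, *Mfap4*, *Mfap5* and *Fbln5* ratios in F0 and F1 did not overlap. Those of *Fbn1*, *Fbn2*, *Fbln1* and *Fbln2* did not either, with *Fbln2* the higher in F0. With 1 library each the difference between the subclusters had no replicate check, and the share of all genes without overlap was not computed.

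Some of the genes were also lower in F2, F3, F4 and F5. In F2, *Eln* had a log2 ratio of -0.69 (-0.72 to -0.67), *Mfap4* of -0.69 (-0.73 to -0.65), *Fbln5* of -0.71 (-0.79 to -0.63) and *Mfap2* of -0.59 (-0.65 to -0.54), while *Fbn1* was at 535 CPM in BSA and 534 CPM in FGF8. In F3, *Eln* had a ratio of -0.58 (-0.64 to -0.52) and *Mfap4* of -0.46 (-0.56 to -0.35), and *Mfap5* had 0.19 (0.0021 to 0.37). That *Mfap5* ratio leaned on few cells, as 1 of the 467 FGF8 F3 cells held 180 of the 887 UMIs. In F4, *Eln* and *Mfap4* were lower, with ratios of -0.74 (-0.78 to -0.70) and -0.82 (-0.87 to -0.78), and *Fbn2* was higher, with 0.22 (0.13 to 0.31). In F5, *Mfap4* was lower by a log2 ratio of -0.55 (-0.60 to -0.49) and *Eln* by -0.46 (-0.54 to -0.38), whereas *Fbln5* was at 385 CPM in BSA and 420 CPM in FGF8. Of the 10 genes, *Mfap2* and *Mfap4* had a ratio below 0 in all 6 subclusters, *Eln* and *Fbn1* in 5 of 6, and the other genes in 3 or 4. *Efemp1*, at low counts, was higher with FGF8 in F2, with 19 UMIs in BSA and 95 in FGF8 (2.45 and 10.3 CPM), and lower in F3, with 30 and 37 UMIs (33.7 and 17.4 CPM). Of the 95 *Efemp1* UMIs in FGF8 F2, 40 were in 1 of the 442 cells, and 2 cells held 50%.

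F0 had low levels of *Eln*, *Mfap2*, *Mfap4* and *Fbln5* in both libraries and was a larger part of the FGF8 fibroblasts. The pooled ratios of these genes take in both their ratios within the subclusters and the larger F0. *Fbln5* was below 0 in 4 of 6 subclusters, with an interval in F3 that included 0 (-0.30 to 0.10). It was above 0 in F1, at 0.09 (0.04 to 0.15), and in F5, at 0.13 (0.01 to 0.24). In the BSA library F0 was not low for every gene, with *Mfap5* at 810 CPM in F0 cells against 757 CPM over all fibroblast-like cells. In the FGF8 library *Mfap5* was lower in F0, at 492 CPM against 596 CPM. When the within-subcluster log2 ratios were averaged with the same weights for both libraries, *Eln* was at -0.52 instead of -0.93, *Mfap2* at -0.57 instead of -0.92, *Mfap4* at -0.67 instead of -1.03 and *Fbln5* at -0.32 instead of -0.66, and of the 10 genes *Mfap4* was beyond 1.5-fold. Counting each cell equally, so that deep cells had no more weight than shallow ones, gave -0.55 for *Eln*, -0.60 for *Mfap2*, -0.75 for *Mfap4* and -0.36 for *Fbln5*. Without F0, none of the 10 was 1.5-fold lower, and the ratios were -0.42 for *Eln*, -0.35 for *Mfap2*, -0.50 for *Mfap4* and -0.20 for *Fbln5*. The fibrillins were then level, at -0.02 for *Fbn1* and -0.01 for *Fbn2*.

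**Figure D3:**
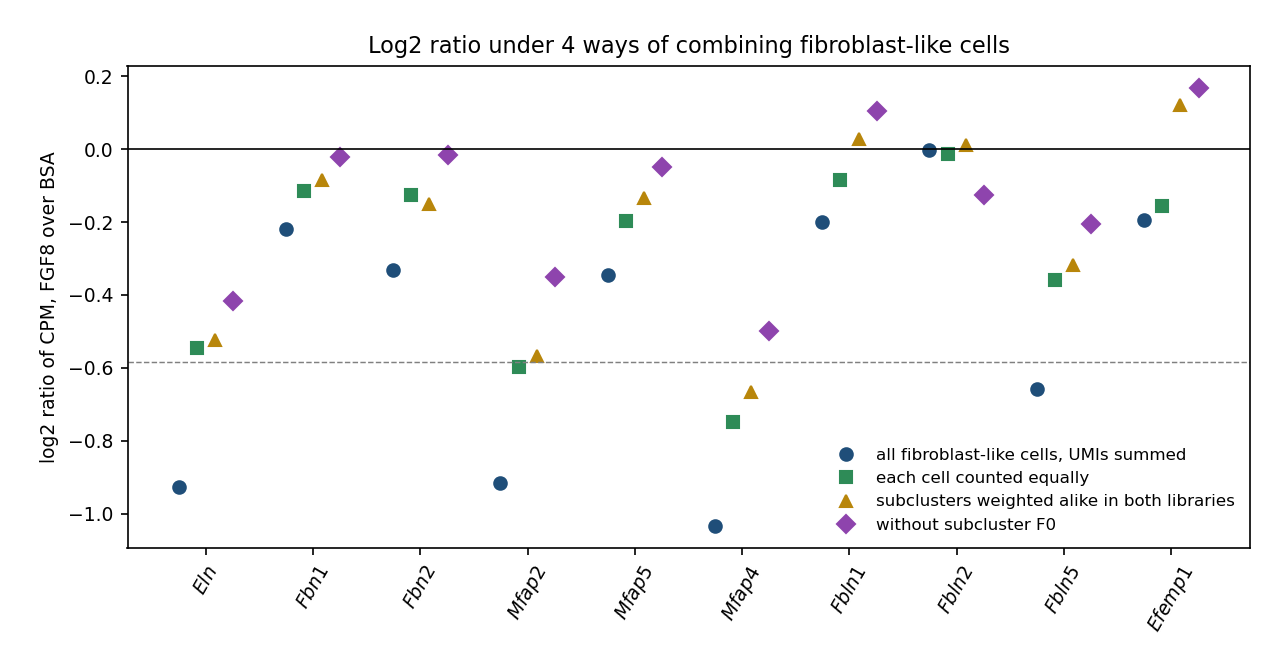
Log2 ratio of FGF8 over BSA for each elastic fibre gene when the fibroblast-like cells were combined in 4 ways; the dashed line marks 1.5-fold lower. *Eln*, *Mfap2*, *Mfap4* and *Fbln5* stayed below 0 in all 4, from -0.20 to -1.03, and without F0 no gene reached the dashed line.

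Within F0 the levels also went with *Prg4*. Among F0 cells thinned to 5000 UMIs in the FGF8 library, 613 had a *Prg4* UMI and 468 had none. *Eln* was at 221 CPM (205 to 238) in the cells with *Prg4* and at 586 CPM (555 to 618) in those without. *Mfap2* was at 91.7 and 267 CPM, *Mfap4* at 176 and 394 CPM and *Fbln5* at 73.7 and 149 CPM in the same cells. *Fbn1* was also lower with *Prg4*, at 446 and 607 CPM, as were *Mfap5* (413 and 644 CPM), *Fbln1* (40.5 and 106 CPM) and *Efemp1* (4.89 and 25.2 CPM). *Fbn2*, at 230 and 268 CPM, and *Fbln2*, at 300 and 327 CPM, differed less. In the BSA library, F0 had 81 cells with a *Prg4* UMI and 186 without, and *Eln* was at 486 CPM (421 to 559) in the former and 612 CPM (563 to 664) in the latter. *Fbn2* was higher in those with *Prg4*, at 437 CPM (375 to 506) against 342 CPM (305 to 382). In F1 of the FGF8 library *Eln* was also higher with *Prg4*, at 2655 CPM (2522 to 2793) in 113 cells with a *Prg4* UMI and at 2234 CPM (2178 to 2292) in 532 cells without. In F2 of that library *Eln* was again lower in cells with *Prg4*, at 835 CPM (773 to 899.9) in 162 cells against 3053 CPM (2961 to 3146) in 278. The split on *Prg4* was chosen after the levels of F0 were seen.

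The makeup of the microfibril pairs was also compared, as the share of one gene in the UMIs of both. *Fbn2* gave 36.6% of the fibrillin UMIs in BSA fibroblast-like cells (36.2 to 37.1) and 34.8% in FGF8 ones (34.5 to 35.1). Among subclusters this share ranged more widely, from 17.2% in BSA and 21.7% in FGF8 cells of F4 to 54.2% and 54.5% in F5. *Mfap2* gave 54.4% of the *Mfap2* and *Mfap5* UMIs in BSA (54.0 to 54.8) and 44.5% in FGF8 (44.2 to 44.9). It gave 83.8% in BSA and 80.5% in FGF8 cells of F5 but 30.01% and 23.2% in F0, and in all 6 subclusters the FGF8 share was the lower one.

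The cells of other named types mostly had less of these transcripts, with *Efemp1* in BSA chondrocyte-like cells above its fibroblast level. An unnamed cluster of few UMIs per cell led by *Col1a1* and *Lum* came closer, with *Eln* at 793 CPM in BSA and 745 CPM in FGF8 and *Fbn1* at 349 and 490.3 CPM. Macrophage-like, neutrophil-like and erythroid-like cells, which do not make elastic fibres, had between 41.9 and 189 CPM of *Eln* and served as a measure of free RNA in the droplets. FGF8 neutrophil-like cells were the highest of these, with 189 CPM of *Eln* (167 to 214) and 112 CPM of *Fbn1* (95.2 to 132). Their *Fbn1* came to 59.3 UMIs per 100 *Eln* UMIs (48.2 to 72.7), close to the 62.8 of FGF8 fibroblast-like cells (62.1 to 63.6). *Mfap4*, *Mfap5* and *Mfap2* were lower, at 38.8 (30.5 to 49.0), 31.0 (23.8 to 40.0) and 27.1 (20.5 to 35.5) against 76.4, 55.6 and 44.6. For *Fbn2* and the fibulin genes, *Efemp1* included, the interval held the fibroblast value. The source of these UMIs was not tested.

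Several types stood apart from that background in the proportions of the genes. Pericyte-like cells, 185 in BSA and 285 in FGF8, had 237 CPM (220 to 256) and 321 CPM (302 to 339.5) of *Fbn1*, or 205 and 218 *Fbn1* UMIs per 100 *Eln* UMIs, against 52.7 in FGF8 macrophage-like cells (47 *Fbn1* and 188 *Eln* UMIs in BSA ones). Schwann-like cells, 129 in BSA and 241 in FGF8, had *Mfap2* at 212 CPM (193 to 233) and 216 CPM (199.8 to 232), *Fbln5* at 136 and 171 CPM and *Fbln2* at 104 and 125 CPM. Their *Mfap2* made up 560 UMIs per 100 *Eln* UMIs in BSA and 208 in FGF8, against 26.1 and 25.3 in macrophage-like cells. Blood endothelial-like cells, 52 in BSA and 128 in FGF8, had *Fbln2* at 170 CPM (145 to 198) and 198 CPM (179 to 220) and *Fbn1* at 165 and 124 CPM, with 22.6 and 20.5 CPM of *Mfap2*. Of the 160 *Fbn1* UMIs of the BSA ones, 71 were in 1 cell. Chondrocyte-like cells, 69 in BSA and 142 in FGF8, had *Efemp1* at 53.3 CPM (42.8 to 65.5) in BSA and 20.3 CPM (15.7 to 25.9) in FGF8, a log2 ratio of -1.39 (-1.87 to -0.92), and *Mfap2* at 173 and 82.9 CPM (-1.06, interval -1.30 to -0.82). Few of these cells held the *Efemp1* UMIs: 4 BSA cells had 50% of 90 UMIs and 5 FGF8 cells 50% of 66. Lymphatic endothelial-like cells, of which the BSA library had 50 and the FGF8 library 12, too few to show, had *Eln* at 498 CPM and *Mfap4* at 340 CPM. Their *Fbn1* and *Mfap2*, at 38.5 and 44.8 UMIs per 100 *Eln* UMIs, were close to the 38.5 and 44.2 of BSA fibroblast-like cells, while *Fbln5* was at 50.1 (41.9 to 59.9) against 17.4.

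In 3 cell types with a higher *Eln* level in FGF8, a large share of its FGF8 UMIs was in a single cell. In chondrocyte-like cells *Eln* was at 64.5 CPM (BSA) and 199.7 CPM (FGF8), but 1 of the 142 FGF8 cells held 455 of the 648 UMIs, 70.2%. In Schwann-like cells it went from 37.9 to 103 CPM, and 1 of 241 FGF8 cells held 160 of 330 UMIs, 48.5%. In keratinocyte-like cells it was at 57.5 CPM in BSA and 138 CPM in FGF8, and 1 of 136 FGF8 cells held 162 of 296 UMIs, 54.7%.

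**Figure D4:**
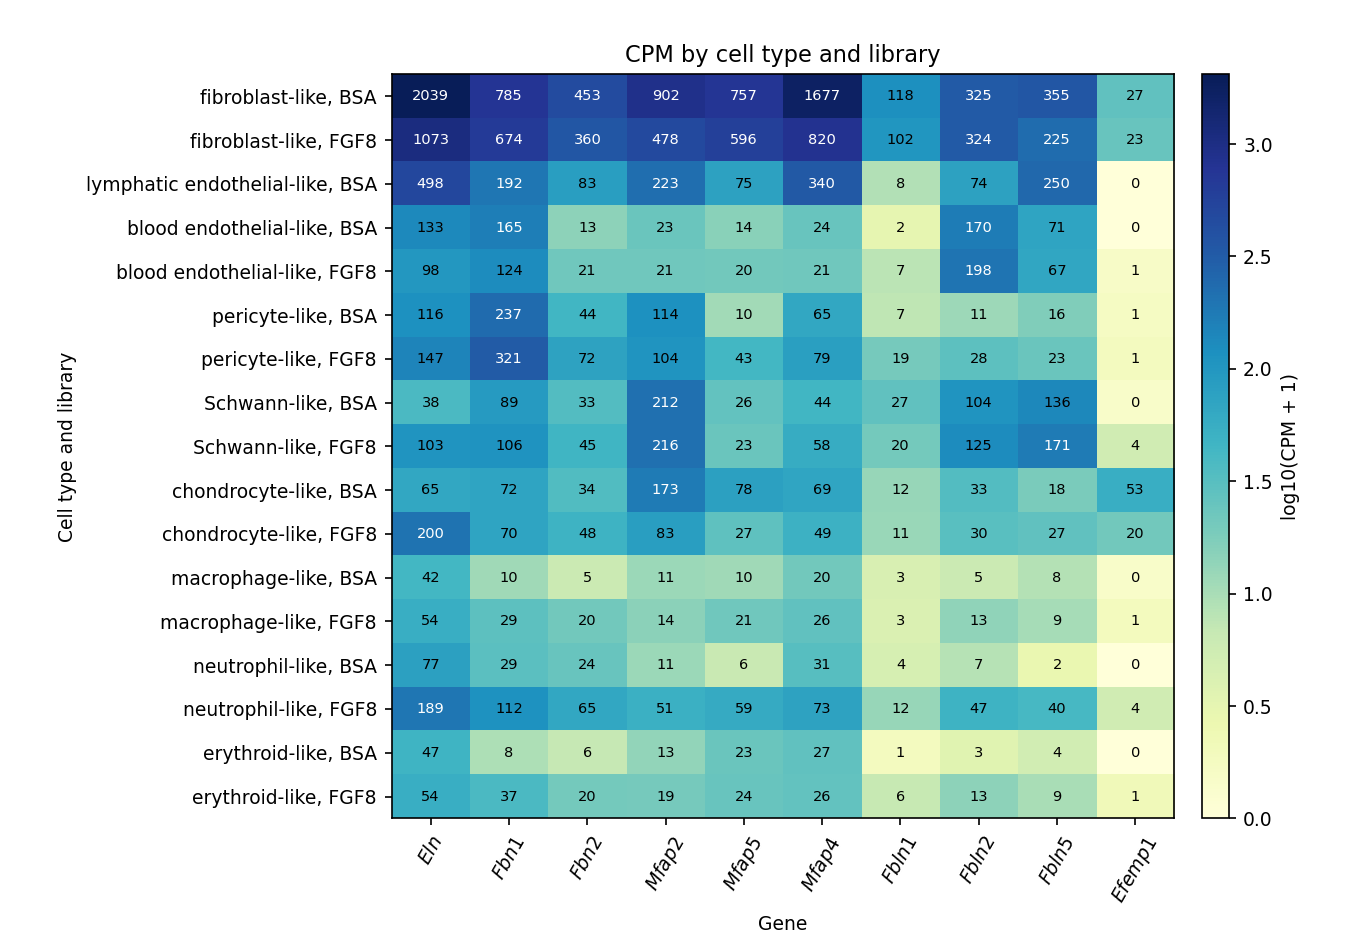
CPM of the 10 genes by library for selected named cell types, printed in each cell and coloured by log10(CPM + 1). A library is shown for a type with at least 50 cells. Keratinocyte-like cells, monocyte or dendritic-like cells and the unnamed clusters are not drawn. Within each library the fibroblast-like cells had the highest level of all 10 genes except *Efemp1* in BSA, which chondrocyte-like cells had at 53.3 CPM, and *Fbn1* in pericyte-like, *Mfap2* in Schwann-like and *Fbln2* in blood endothelial-like cells were above the macrophage-like levels.

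Over the 25 sums of at least 50 cells of 1 type and library, the genes whose levels were most like those of each member were found as a description. These sums share libraries and differ in depth and number of cells. *Eln* was closest to *9330154J02Rik*, *Mfap4* and *Loxl1* (Pearson r of log2(CPM + 10) of 0.931, 0.923 and 0.921). *Mfap4* was closest to *Dpep1*, *Angptl1* and *Loxl1* (0.975, 0.954 and 0.952), and *Mfap2* to *Mmp2*, *Mdk* and *Col1a1* (0.969, 0.959 and 0.954). *Fbn1* was closest to *Fstl1*, *Bicc1* and *Vcam1* (0.979, 0.952 and 0.931), and *Fbn2* to *Pdgfra*, *Lrrc15* and *Tmem132c* (0.95, 0.947 and 0.945). *Mfap5* was closest to *Sfrp2*, *Ccn5* and *Svep1* (0.963, 0.963 and 0.961), and *Fbln1* to *Fzd2*, *Mme* and *Lgr5* (0.917, 0.902 and 0.902). *Fbln2* and *Fbln5* were both closest to *Dpysl3* (0.922 and 0.930), followed by *Flnc* (0.911) and *Fbln5* itself (0.908) for *Fbln2* and by *Hmcn1* (0.926) and *Myh10* (0.914) for *Fbln5*. *Efemp1* was closest to *Smoc2*, *Slc4a4* and *Cpa6* (0.903, 0.901 and 0.898).

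From cell to cell within the fibroblast-like cells, *Mfap4* was found most together with *Mfap2* and *Eln*. In 2932 FGF8 cells thinned to 5000 UMIs, Pearson's r of log2(UMIs + 1) was 0.675 for *Mfap2* with *Mfap4*, 0.652 for *Eln* with *Mfap4* and 0.528 for *Mfap4* with *Fbln5*. In 1497 BSA cells the same pairs gave 0.573, 0.589 and 0.483. *Eln* with *Fbn1* gave 0.387 in FGF8 and 0.367 in BSA cells. These values are a description of cells that share a library.

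*Eln*, *Mfap2*, *Mfap4* and *Fbln5* are protein-coding genes on 4 chromosomes (GRCm39): *Eln* at chr5:134731445-134776322, *Mfap2* at chr4:140737729-140743295, *Mfap4* at chr11:61376212-61379727 and *Fbln5* at chr12:101712556-101785429. Upstream sequence from RefSeq's table for GRCm38.p6 was at hand for *Mfap2* and *Fbln5*, and not for *Eln* or *Mfap4*. For each, 199 bases are shown, since the 2 genes were lower together. They end 51 bases before the start site of that table, so that none lies inside the gene model, and matched GRCm39 once, at chr4:140737485-140737683 (plus strand) and chr12:101785430-101785628 (minus strand). Capitals mark a CCAAT box (CCAAT or ATTGG) or a GC box (GGGCGG or CCGCCC).
Mfap2: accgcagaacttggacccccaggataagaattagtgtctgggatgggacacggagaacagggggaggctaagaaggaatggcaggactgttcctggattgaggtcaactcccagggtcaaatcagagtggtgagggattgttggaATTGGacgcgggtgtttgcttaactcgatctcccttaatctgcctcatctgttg
Fbln5: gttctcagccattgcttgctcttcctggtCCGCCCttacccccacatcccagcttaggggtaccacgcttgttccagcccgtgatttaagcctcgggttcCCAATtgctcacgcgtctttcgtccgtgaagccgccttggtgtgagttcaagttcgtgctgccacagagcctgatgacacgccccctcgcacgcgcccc
A CCAAT box began 105 bases before the *Mfap2* start and 150 bases before the *Fbln5* start, and *Fbln5* had a GC box 221 bases before it. Of 32851 mouse promoter windows of the same length, 28.2% held a CCAAT box and 24.4% a GC box on either strand. Neither window held the letters of an AP-1 site (TGANTCA), found in 5.55% of windows, or of a TATA box (TATAAA), found in 9.11%. The 51 bases next to the start site lay outside all windows, so a motif there would not have been found.

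Of 51 other genes of elastic fibre biology, 49 reached 10 UMIs in the fibroblast-like cells, and their median log2 ratio was -0.30, with 37 below 0, 14 at least 1.5-fold lower and 7 at least 1.5-fold higher with FGF8. Among all genes in these cells the corresponding shares were 56.0% below 0, 15.7% lower and 13.3% higher. Within the subclusters the median of the pathway genes was -0.34 in F0, -0.26 in F3 and -0.20 in F2. It was -0.09 in F4, -0.07 in F5 and -0.03 in F1, where the medians of all genes lay between -0.06 and 0.08 over the subclusters. The groups and single genes below were taken over all fibroblast-like cells and not by subcluster. The Adamts and Adamts-like genes, whose products bind or process microfibrils, were the group with the lowest median, -0.72, and 6 of 9 were at least 1.5-fold lower, against 15.7% of all genes. *Adamtsl1* was at 83.5 CPM in BSA and 37.1 CPM in FGF8, a log2 ratio of -1.17 (-1.25 to -1.10). *Thsd4*, which encodes an Adamts-like protein that binds fibrillin, was at 53.3 and 24.3 CPM (-1.13, interval -1.23 to -1.04), and *Adamts17* at 43.6 and 21.6 CPM (-1.01, interval -1.12 to -0.91). *Adamtsl3* was higher with FGF8, at 38.3 and 49.8 CPM. *Adamtsl3* and, below, *Lox*, *Loxl1*, *Efemp2*, *Ctsk*, *Mmp2* and *Ctsl* were chosen after their values were seen.

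Of the 5 crosslinking enzymes, 4 were below 0 and 1 above, where 56.0% of all genes were below 0. *Lox*, the lysyl oxidase that crosslinks elastin and collagen, was at 626 CPM in BSA and 367 CPM in FGF8, a log2 ratio of -0.77 (-0.79 to -0.74), while *Loxl1*, known for its role at elastic fibres, was at 296 and 249.98 CPM (-0.24, interval -0.28 to -0.21). *Loxl3* went the other way, with 22.7 CPM (BSA) and 44.5 CPM (FGF8), a log2 ratio of 0.97 (0.86 to 1.08). Among the other fibulins and glycoproteins, 10 of 12 were below 0, with *Emilin3* (4.20 and 1.70 CPM; -1.30, interval -1.66 to -0.94) and *Fbln7* (20.1 and 8.82 CPM; -1.19, interval -1.35 to -1.03) the lowest. *Efemp2*, whose product fibulin-4 brings lysyl oxidase to tropoelastin, was at 140 CPM in BSA and 169 CPM in FGF8, a log2 ratio of 0.27 (0.22 to 0.32).

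*Ltbp2*, a latent TGF-beta binding protein gene whose product sits on microfibrils, was at 123 CPM in BSA and 198 CPM in FGF8, a log2 ratio of 0.69 (0.64 to 0.74), while the other 3 genes of its group were below 0. Among receptors, 5 of 9 were below 0, near the 56.0% of all genes. The integrin subunit genes *Itga5*, at 62.4 and 116 CPM (0.90, interval 0.83 to 0.96), and *Itgb6*, at 1.97 and 3.98 CPM (1.01, interval 0.63 to 1.41), were higher with FGF8. The proteases that can degrade elastin were split: *Ctsk* was at 459 CPM in BSA and 263 CPM in FGF8 and *Mmp2* at 469 and 283 CPM, while *Ctsl* was at 680 and 1064 CPM. *Mmp9* was at 0.817 CPM (29 UMIs) in BSA and 5.89 CPM (411 UMIs) in FGF8, a log2 ratio of 2.85 (2.30 to 3.45). Neutrophil-like cells had *Mmp9* at 269.5 and 349 CPM and were 156 cells in BSA and 516 in FGF8, and their part in the *Mmp9* of the fibroblast-like cells was not tested. *Mmp7* and *Elane* had no UMI in fibroblast-like cells of either library. At 2000 UMIs per cell, 4 and not 14 of these genes were at least 1.5-fold lower.

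**Figure D5:**
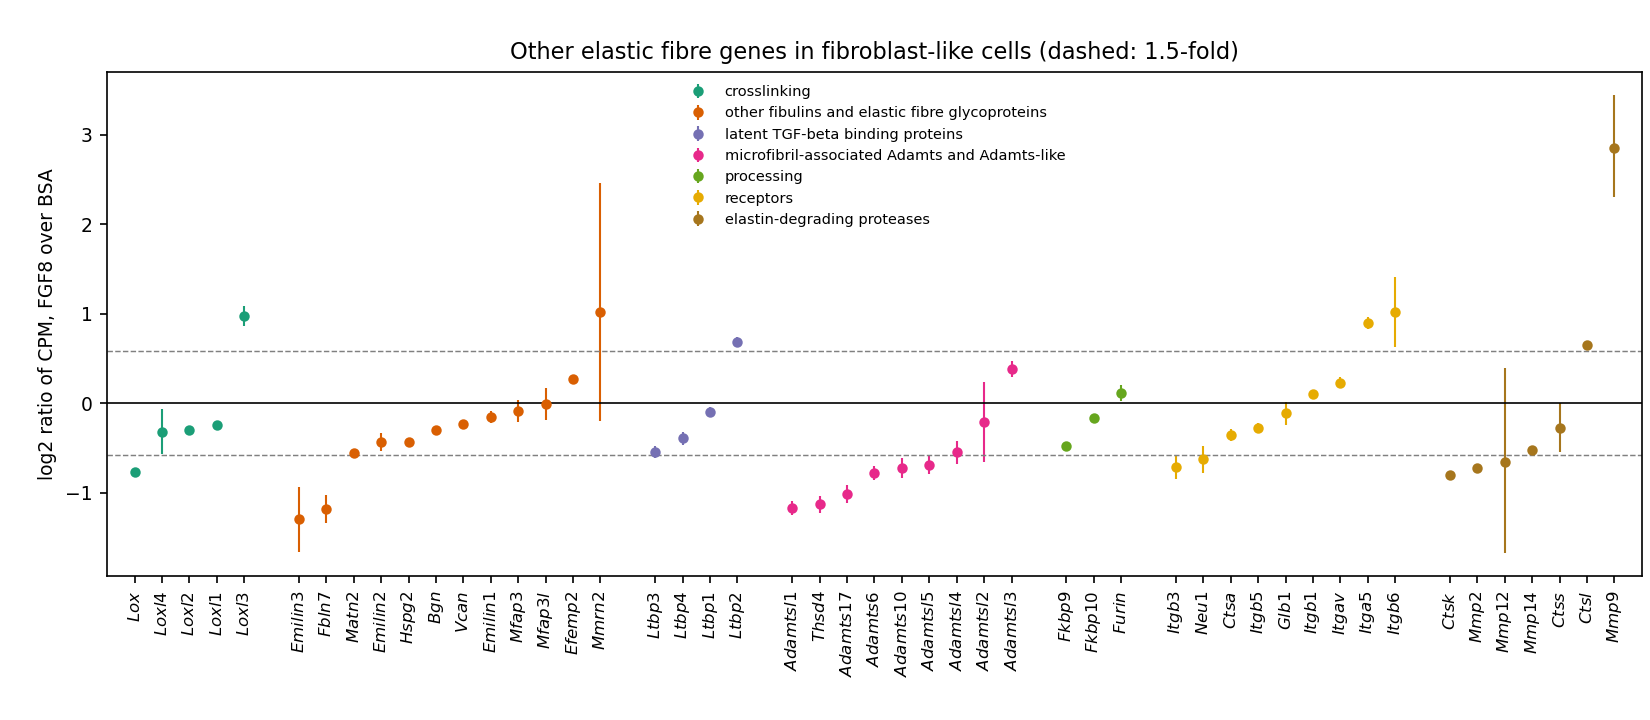
Log2 ratio of FGF8 over BSA in fibroblast-like cells for 49 other elastic fibre genes, grouped by role and ordered within each group, with 95% counting intervals; dashed lines mark 1.5-fold. The Adamts and Adamts-like group lies lowest, with 6 of 9 genes below the lower line, and *Mmp9* lies highest, at 2.85.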

How the data were processed

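The data are single-cell RNA sequencing of 2 libraries, 1 per treatment. The authors captured cells with 10x 3′ chemistry (version 3.1) and deposited raw UMI counts per gene and barcode, made with Cell Ranger 9.0.0 on GRCm39, while the submitters' processing notes also list mm10 and Seurat. Cells were required to have over 200 and under 7500 detected genes and less than 15% mitochondrial UMIs, and were merged, normalized by SCTransform and integrated by CCA (Seurat 5.3.0, sctransform 0.4.2, R 4.3.3; 30 components, resolution 0.05, then 0.2 for fibroblast-like and, separately, other cells, seed 42). The 10 genes and 51 pathway genes were left out of the clustering features, and for fibroblast-like cells sex-linked genes too. Clusters were named from marker lists, by naming rules set after seeing the data, and low-UMI or mixed clusters stayed unnamed. Scrublet (scanpy 1.11.5) called 0 doublets in either library and so did not work, and doublets were not removed.

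For each cell type with 50 or more cells in a library, the UMIs of its cells were added up and scaled to CPM (Python 3.11.15, scipy 1.17.1). A gene with no UMI in 1 library entered at a floor of 3 counts. Intervals are exact (Poisson, conditional binomial or Clopper-Pearson) at 95% and cover counting error only. No p-value was computed. List counts took genes that reached 10 UMIs in the 2 libraries together. The ratio computation was tested on simulated counts. Named genes are the 10, the 5 highest and 5 lowest pathway genes with at least 100 UMIs, and the 3 most alike genes of each of the 10, except where said otherwise. The 10 genes and the lists were chosen with earlier results of these data known. Alternatives were other cell filters, clusterings, weights, thinning, centring and each sex. Leaving out subcluster F0 or F3, and pooling clusters under other clusterings, were chosen after seeing the data. Gene positions are from GENCODE on GRCm39, which held 33185 of the 33696 identifiers.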

Additional observations from a re-analysis of the deposited data

Results flagged for a closer look

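These log2 ratios of FGF8 over BSA were at least 1 in another cell type, with the counting interval above 0, for a gene whose interval in fibroblast-like cells lay below 0. With 1 library per treatment, the differences between cell types were not tested. Neutrophil-, macrophage- and erythroid-like cells served above as a measure of free RNA, and the source of their UMIs was not tested. Median depth was 1708 UMIs in BSA and 9582 in FGF8 keratinocyte-like cells, and 17635 and 6728.5 in erythroid-like ones. In neutrophil-like cells the ratio was 4.43 for *Fbln5* (1 UMI in BSA, 54 in FGF8), 3.42 for *Mfap5*, 2.22 for *Mfap2*, 1.94 for *Fbn1*, 1.45 for *Fbn2*, 1.30 for *Eln* and 1.24 for *Mfap4*. In macrophage-like cells it was 1.98 for *Fbn2*, 1.45 for *Fbn1* and 1.02 for *Mfap5*. In erythroid-like cells it was 2.76 for *Fbln1*, 2.14 for *Fbn1* and 1.74 for *Fbn2*. In keratinocyte-like cells it was 2.08 for *Mfap5*, 1.26 for *Eln*, 1.24 for *Fbln1* and 1.07 for *Mfap4*. For keratinocyte-like *Eln*, 1 of 136 FGF8 cells held 162 of 296 UMIs, and for *Mfap5* 3 of them held 50% of 77 UMIs. In pericyte-like cells it was 2.09 for *Mfap5* and 1.53 for *Fbln1*, and 4 of 285 FGF8 cells held 50% of the 155 *Mfap5* UMIs. In Schwann-like cells it was 3.23 for *Efemp1* (1 and 14 UMIs) and 1.45 for *Eln*, and in chondrocyte-like cells 1.63 for *Eln*, and 1 FGF8 cell held 48.5% and 70.2% of these *Eln* UMIs. In an unnamed cluster led by *Serpinb1a* and *Skap1* it was 1.70 for *Mfap5* and at least 1.28 for *Fbln1*, which had 0 UMIs in BSA and 9 in FGF8 and was set against a floor of 3 UMIs. In an unnamed cluster of few UMIs per cell led by *Col1a1* and *Lum* it was 1.61 for *Efemp1*.

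The barcodes left out by the cell filters, 451 in BSA and 534 in FGF8, also held these transcripts. In them *Fbln2* was at 289.9 CPM in BSA and 322 CPM in FGF8, a log2 ratio of 0.15 (0.10 to 0.21), the only one of the 10 genes whose interval lay above 0. The ratio was -1.62 for *Eln*, -1.25 for *Mfap2*, -1.16 for *Mfap4*, -0.63 for *Fbln5*, -0.45 for *Fbn2*, -0.35 for *Mfap5* and -0.13 for *Fbn1*, and for *Fbln1* and *Efemp1* the interval included 0.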

How the results depend on the processing

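Over 17 alternatives, *Eln*, *Fbn1*, *Fbn2*, *Mfap2*, *Mfap4*, *Mfap5* and *Fbln5* were lower with FGF8 in fibroblast-like cells in all, *Fbln1* in 14, *Efemp1* in 13 and *Fbln2* in 10. The ratio of *Eln* ranged from -1.02 to -0.42 and that of *Mfap4* from -1.18 to -0.50. The number of genes at least 1.5-fold lower, 4 as reported, was 2 with a stricter cell filter, with each cell counted equally and after thinning to 2000 or 5000 UMIs, 1 with subclusters at equal shares and 0 without F0. The number at least 2-fold lower, 1 as reported, was 0 under these same settings and after centring on the median of all genes, and 2 in male-called cells. The median of the 10 genes, -0.34, was -0.17 with the stricter filter, -0.18 with each cell counted equally, -0.17 after thinning to 2000 UMIs, -0.14 with subclusters at equal shares and -0.088 without F0. Of the pathway genes, 4 instead of 14 were at least 1.5-fold lower after thinning to 2000 UMIs. The cause of these shifts was not tested. With no integration, or at a resolution of 0.1 or 0.2, no cluster took the fibroblast name, and clusters made mainly of the fibroblast-like cells were pooled instead. No paired analysis was possible because each treatment had 1 library.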
